A study of Homo sapiens with 15 samples.

Results

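Collagen genes were taken as all protein-coding genes whose symbol is COL, a number, A and a number, which gave 44 of the 57272 genes in the count table. Of these, 32 had enough reads to be tested and 12 did not. The libraries were made from MRC-5 cells, primary human fibroblasts of fetal lung origin grown at 5% O2, and formed 5 groups with 3 replicates each. Young cells were at population doubling (PD) 30 and carried a lentivirus, either the empty vector pWPIR-GFP or the same vector expressing TRF2, a protein that protects telomeres and is encoded by TERF2. Another group of young cells at PD 30 received siRNA against LMNB1, the gene of the nuclear lamina protein lamin B1, and its column headers name the empty vector. Senescent cells carried the empty vector and were collected at PD 71, or carried the TRF2 vector and were collected at PD 75. All groups except siLMNB1 received a control siRNA. The study reports triplicates for each condition and calls those of young and senescent cells biological replicates. Neither it nor the labels say that they were separate cultures, so p-values measure only the spread between these libraries.

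Collagens are the main structural proteins of the extracellular matrix and are built from chains in which glycine recurs in a Gly-X-Y repeat. Fibrillar collagens form the fibrils that give connective tissue its strength, and fibroblasts are their main source. Type IV collagens form the network of basement membranes, type VI collagens form beaded filaments around cells, and FACITs attach to the surface of fibrils. Lung fibroblasts make type I and type III collagen in bulk, and the amounts change in fibrosis and with age.

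Structural classes were assigned from a preset list, and runs of the Gly-X-Y repeat were counted in the coding sequences of the MANE Select transcripts. The uninterrupted Gly-X-Y run had 338 repeats in COL1A1, 339 in COL1A2 and 343 in COL3A1, and 216 and 217 in the fibrillar genes COL24A1 and COL27A1. In the 6 type IV genes the repeat was broken into 22 to 27 runs of at least 5 repeats, the longest of 38 to 66. The length of the longest run did not separate all classes, as it was 57 in the FACIT gene COL16A1. That gene had 21 such runs, just under the range of the type IV genes. The GC content of the exons ranged from 39.7% in COL21A1 to 66.8% in COL18A1. It was 59.6% in COL1A1, 45.3% in COL1A2 and 64.0% in COL6A1, and the libraries differed in how strongly counts followed GC content. Among the 44 genes, 30 shared no exonic base with another gene, while 18.5% of the exonic bases of COL18A1 and 3.98% of those of COL5A3 were shared.

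Several collagen genes lie head to head in pairs that share an upstream region, and their pairs are described together here. The start sites annotated by RefSeq (GRCh38.p14) were separated by 126 bases between COL4A1 and COL4A2, by 418 between COL4A4 and COL4A3 and by 379 between COL4A6 and COL4A5. The stretches below are the upstream sequences of the expressed pairs and of COL18A1 and COL5A3, chosen because COL4A6, COL18A1 and COL5A3 differed between senescent and young cells. Capitals mark the motif CCAAT, the motif GGGCGG or the motif TATAAA on either strand, where matches may overlap, and no printed base lies in an exon annotated by GENCODE 44. The stretch between COL4A1 and COL4A2 is chr13:110307158-110307257 on the minus strand, that of COL4A5 and COL4A6 is chrX:108439588-108439837 on the plus strand, that of COL18A1 is chr21:45404944-45405164 on the plus strand and that of COL5A3 is chr19:10010505-10010754 on the minus strand.
COL4A1-COL4A2: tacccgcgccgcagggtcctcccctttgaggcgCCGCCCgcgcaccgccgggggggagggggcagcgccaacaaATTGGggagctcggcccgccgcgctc
COL4A5-COL4A6: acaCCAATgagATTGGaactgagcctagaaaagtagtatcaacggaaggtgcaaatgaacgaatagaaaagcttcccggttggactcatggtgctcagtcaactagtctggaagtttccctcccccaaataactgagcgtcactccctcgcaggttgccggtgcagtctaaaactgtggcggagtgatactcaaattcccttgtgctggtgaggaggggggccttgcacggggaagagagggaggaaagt
COL18A1: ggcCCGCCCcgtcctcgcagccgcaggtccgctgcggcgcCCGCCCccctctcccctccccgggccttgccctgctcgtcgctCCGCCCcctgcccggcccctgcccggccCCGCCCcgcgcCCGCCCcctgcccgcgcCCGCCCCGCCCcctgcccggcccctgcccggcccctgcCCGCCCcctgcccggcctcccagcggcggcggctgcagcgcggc
COL5A3: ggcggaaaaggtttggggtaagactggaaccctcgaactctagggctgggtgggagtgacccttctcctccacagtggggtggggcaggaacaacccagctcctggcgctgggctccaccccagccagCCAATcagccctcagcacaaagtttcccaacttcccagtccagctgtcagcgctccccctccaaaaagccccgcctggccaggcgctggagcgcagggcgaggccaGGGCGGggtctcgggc

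Both type IV pairs and COL5A3 held CCAAT in these stretches and COL18A1 held none. GGGCGG occurred 8 times in the COL18A1 stretch, whose GC content was 88.2%. It was not found in the COL4A5-COL4A6 stretch, whose GC content was 51.2%. That stretch covers 250 of the 379 bases between the start sites, on the side of COL4A5. In windows from 250 bases before to 50 after the start site, CCAAT was present in 33.0% of the 27305 promoters in the RefSeq table, GGGCGG in 42.3% and TATAAA in 11.1%. Of the 32 collagen genes with a promoter in the table, 9 held CCAAT, 18 held GGGCGG and 5 held TATAAA. These matches describe the letters of the sequence and say nothing about binding.

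Total counts per library lay between 26725885 and 43116046. LMNB1 fell from 59.7 ± 1.20 CPM (read counts scaled to normalized library size, SD, n = 3) in young cells with the empty vector to 2.67 ± 0.281 with siLMNB1, and stood at 5.13 ± 0.526 in senescent cells with the empty vector. TERF2 was at 23.8 ± 1.81 CPM in young cells with the empty vector, at 128, 307 and 149 CPM in the young TRF2 libraries and at 210.0, 285 and 209.9 CPM in the senescent TRF2 libraries. All 10 fibroblast markers were tested and summed to 3655 to 3792 CPM in young and 2416 to 2663 CPM in senescent cells with the empty vector, ranges that did not overlap, and their part in the collagen values was not tested. The immune markers CD3E, TYROBP and ITGAM and 4 of 10 epithelial markers (ELF3, GRHL2, SFTPC and SCGB1A1) had at most 3 counts in every library. The immune list, of which 2 of 8 genes were tested, summed to 0.763 to 1.57 CPM in young and 2.56 to 3.05 CPM in senescent cells with the empty vector, and the epithelial list, of which 3 of 10 were tested, to 11.2 to 19.9 and 18.8 to 30.3 CPM. The labels describe all 6 senescent libraries, and 0 of the 9 young ones, as a reanalysis of data deposited before, so senescence and origin of the data cannot be told apart. The departure of each library from the young empty group, taken as reference, also followed the GC content of genes. Its slope was 0.460 to 0.823 log2 units per 10 percentage points of GC in the senescent libraries. In the young ones it was −0.00633 to 0.134, and senescent empty replicate 3 had the steepest slope. The slopes of the reference libraries are small by construction. They do not show how strongly counts in young cells follow GC content. A refit was therefore made with offsets that take out the trend of each library with GC content and length. Its values stand beside printed fold changes in senescence or with siLMNB1 where they end or start a call. They also stand where the log2 value of a called gene moves by more than 1.5 times, and for COL5A3, COL8A2 and COL11A2. The offsets take out any difference that follows GC content or length, also one that arose in the cells. How much of the trend arose in the cells was not tested.

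A few genes held most of the collagen counts. Per kilobase of exon and on the normalized CPM scale, COL1A1 and COL1A2, which encode the chains of type I collagen, had levels of 1323 and 652 in young cells with the empty vector. Next in that group came COL6A2 at 330.5, COL6A1 at 236, COL3A1 at 229, COL6A3 at 203, COL5A2 at 133, COL4A1 at 72.9, COL5A1 at 58.3 and COL4A2 at 53.6. These 10 genes also had the highest level in any group, and COL12A1 at 60.3 lay among them in young cells. The levels of COL6A1 and COL3A1 differed by less than the spread between replicates of either gene, and those of COL5A1 and COL12A1 by less than the spread of COL5A1.

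At the other end of the range, 12 genes had too few reads for a test. COL20A1 had no read in any library. COL6A6 and COL9A1 had 2 reads each over all 15 libraries, COL6A5 and COL23A1 had 4, COL2A1 had 11, and COL22A1 and COL28A1 had 15. COL26A1 had 17 reads, COL19A1 had 21, COL4A3 had 25 and COL9A3, the most counted of the untested genes, had 95 with at most 16 in a library. COL22A1 had 7, 3 and 1 reads in young cells with the empty vector, most of them in replicate 1, and 0 in the senescent and in the siLMNB1 libraries that share this control. COL19A1 had 2, 5 and 3 reads in young and 0 in senescent cells with the empty vector, and COL28A1 had 3 reads in each siLMNB1 library and 0 in the control.

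As a whole, collagen genes took a larger share of the reads with siLMNB1 and a smaller one in senescent cells. The share of all counts was 3.38%, 3.44% and 3.25% in young cells with the empty vector, 3.78%, 4.62% and 4.01% in young TRF2 cells, and 4.99%, 4.57% and 4.90% with siLMNB1. It was 3.04%, 2.87% and 2.40% in senescent cells with the empty vector and 3.28%, 3.79% and 3.19% in senescent TRF2 cells. The siLMNB1 libraries lay above all young libraries with the empty vector and the senescent libraries with the empty vector lay below them, while the senescent TRF2 and young TRF2 libraries overlapped by 1 library. The difference to young cells with the empty vector was 1.47 percentage points with siLMNB1 and −0.58 in senescent cells, each with an exact two-sided permutation p of 0.1, the smallest that 3 against 3 libraries allow (adjusted p = 0.1875 over 15 exact tests). The difference between senescent and young TRF2 cells was −0.72 percentage points (exact permutation p = 0.2, adjusted p = 0.3). In bulk RNA, fewer cells that make collagen and less collagen RNA per cell cannot be told apart.

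**Figure D1:**
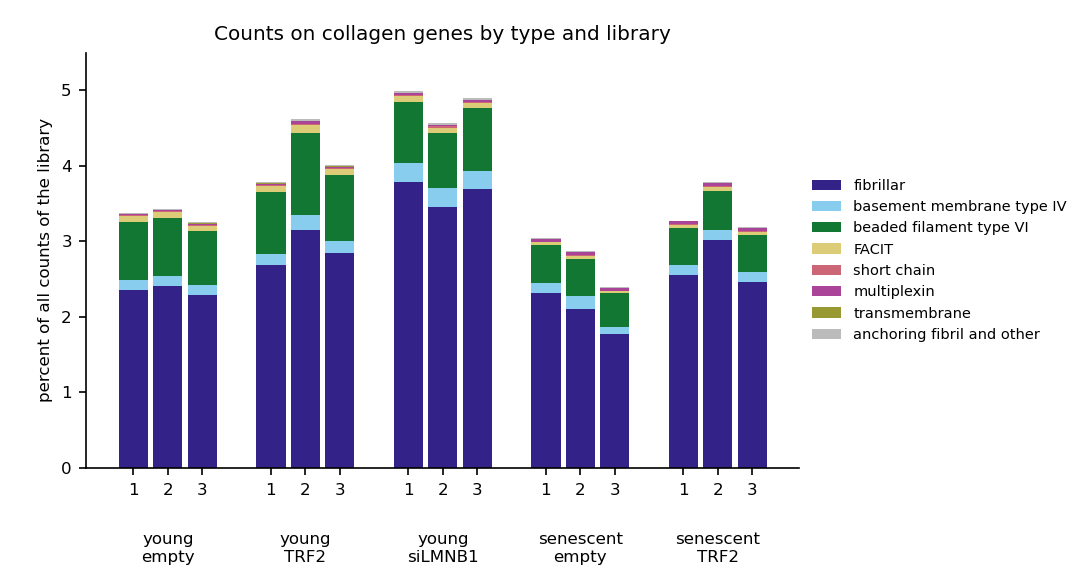
Stacked bars give the percent of all counts of each library that fell on collagen genes, split by structural type, for 3 replicates in each of the 5 groups. The siLMNB1 bars reach 4.57% to 4.99%, above all 3 young empty bars at 3.25% to 3.44%, and the senescent empty bars reach 2.40% to 3.04%.

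The make-up of these counts also differed between groups. In young cells with the empty vector, fibrillar collagens took 70.1% ± 0.317 of the collagen counts (SD, n = 3) and type VI collagens took 22.4% ± 0.505. In senescent cells with the empty vector the type VI share was 17.6% ± 1.32, in senescent TRF2 cells 14.6% ± 0.834 and with siLMNB1 16.4% ± 0.557. COL1A1 took 38.6% ± 0.784 of the collagen counts in young and 45.6% ± 1.09 in senescent cells with the empty vector. The share of COL3A1 moved in the opposite direction, from 6.67% ± 0.170 to 1.92% ± 0.489, and stood at 10.7% ± 0.530 with siLMNB1. A share also depends on the other collagen genes and can move when its own gene does not. The log2 fold change of COL1A1 in senescent cells with the empty vector was −0.02, or −0.77 in the refit with offsets. With siLMNB1 the values of COL6A1, COL6A2 and COL6A3 were 0.10, 0.08 and −0.14.

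The comparison of senescent with young cells asked how collagen expression differed after replicative exhaustion, with the empty vector and with TRF2. A gene was called where the adjusted p was below 0.05 and the log2 fold change was 1 or more in size. With the empty vector, 9 of the 32 tested collagen genes fell (background of all genes tested: 11.8%) and 5 rose (background 16.7%). The genes that fell were COL3A1, COL5A3, COL6A1, COL8A2, COL10A1, COL12A1, COL14A1, COL15A1 and COL21A1, and those that rose were COL4A6, COL11A1, COL11A2, COL18A1 and COL27A1. COL1A1 and COL1A2 were not called. The median log2 fold change was −0.27 over the 32 genes and 0.02 over all genes tested. With the TRF2 vector, 9 collagen genes fell (background 12.1%) and 4 rose (background 11.9%), and the median was −0.52 against −0.02 over all genes. At any fold, 13 genes fell (background 31.9%) and 6 rose (background 32.7%) with the empty vector, and 20 fell (background 30.1%) and 5 rose (background 28.2%) with TRF2. All senescent libraries lay below all young ones for 14 genes (background 32.8%) and above them for 6 (background 31.9%) with the empty vector, and for 18 (background 36.6%) and 5 (background 34.7%) with TRF2.

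In both vector backgrounds COL3A1, COL5A3, COL6A1, COL10A1, COL14A1, COL15A1 and COL21A1 fell and COL4A6, COL11A1 and COL18A1 rose. The libraries of these comparisons differ in both the senescent and the young group, but all senescent libraries share the earlier deposit. The 7 dividing cell markers summed to 627 to 655 CPM in young and 143 to 155 CPM in senescent cells with the empty vector, and their part in the collagen values was not tested. With offsets for GC content and length, 4 collagen genes rose (background of all genes in the same refit 11.3%) and 14 fell (background 9.83%) with the empty vector.

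**Figure D2:**
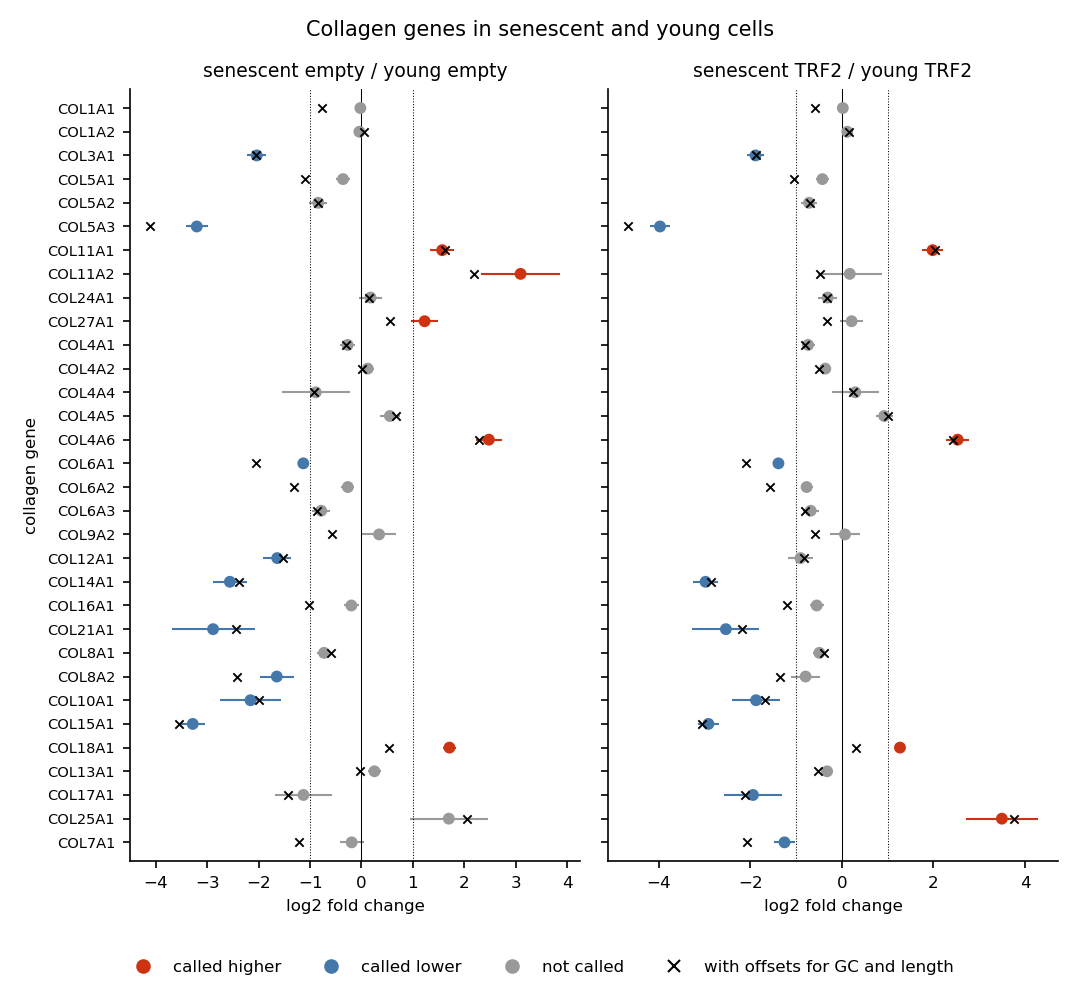
Points give the log2 fold change of each tested collagen gene in senescent against young cells, with the empty vector and with TRF2. Bars give the standard error, and crosses give the value in the refit with offsets. The points of COL15A1 (−3.28 and −2.91) and COL5A3 (−3.20 and −3.97) lie far to the left, and that of COL4A6 (2.48 and 2.53) lies to the right in both. The point of COL1A1 (−0.02 and 0.02) lies at 0, while its crosses lie at −0.77 and −0.58.

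The knock-down of LMNB1 asked what loss of lamin B1 alone did in young cells, against the same 3 control libraries as the senescent comparison with the empty vector and the young TRF2 cells. With a fold threshold of 0.58 on the log2 scale and an adjusted p below 0.05 from edgeR, it raised 14 of the 32 tested collagen genes (background 10.3%) and lowered 0 (background 8.06%). With the fold threshold left out, 18 rose (background 16.4%) and 0 fell (background 16.1%). The log2 fold change was positive in 27 of the 32 genes, and its median was 0.61 against 0.04 over all genes. The genes called were 5 of the 10 tested fibrillar genes, 4 of the 5 type IV genes, 3 of the 5 FACIT genes, 1 of the 3 short chain genes and COL7A1, and none of the 3 type VI, 2 multiplexin and 3 transmembrane genes. At an unadjusted p below 0.05 the edgeR test gave 22 genes in either direction (background 42.6%). DESeq2 called 13 genes higher, and the offsets for GC content and length left 11, with no share over all genes given for either.

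Groups of libraries did not overlap for many genes in this comparison. All 3 siLMNB1 libraries lay above all 3 young libraries with the empty vector for 23 collagen genes (background 29.5%) and below them for 3 (background 27.9%). Dividing cell markers summed to 358 to 364 CPM with siLMNB1 and 627 to 655 CPM in the control, and fibroblast markers to 2654 to 2725 against 3655 to 3792 CPM. Their part in the collagen values was not tested.

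Expression of TRF2 in young cells called 1 collagen gene higher, the FACIT gene COL14A1 (background 0.152%), and 0 lower (background 0.0253%) by edgeR at an adjusted p below 0.05. The log2 fold change was positive in 27 of the 32 genes, with a median of 0.34 against 0.01 over all genes, and 15 genes had an unadjusted p below 0.05 (background 9.66%). All 3 TRF2 libraries lay above the controls for 19 genes (background 11.7%) and below them for 0 (background 12%). Young TRF2 replicate 2, which had the highest TERF2 level, also had the highest collagen share of its group. The difference in share to young cells with the empty vector was 0.78 percentage points with all libraries and 0.54 without that replicate. The count of genes called higher was 0 in every fit with a library of either group left out, 10 without the filter on low counts and 12 in a fit of only the libraries compared. No share over all genes is given for these refits, so their counts cannot be read against a background.

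In senescent cells, TRF2 raised 8 collagen genes (background 4.87%) and lowered 0 (background 6.41%) by edgeR at an adjusted p below 0.05. The genes were COL1A1, COL1A2, COL3A1, COL4A5, COL4A6, COL8A1, COL12A1 and COL15A1. The TRF2 cells were at PD 75 and those with the empty vector at PD 71, so TRF2 and PD cannot be told apart here. By edgeR 16 genes had an unadjusted p below 0.05 (background 28.1%). DESeq2 called 8 higher and 1 lower, with no share over all genes given. The median was 0.33 against −0.02 over all genes. The young and senescent TRF2 comparisons have no library in common. A fit of only the libraries compared called 0 genes, with adjusted p from 0.143 (COL4A6) to 0.295 (COL1A1) for these 8. Leaving out senescent TRF2 replicate 2 left 1 called gene, and leaving out its replicate 1 left 3. COL4A6 was also lost without senescent empty replicate 2 or 3 and without any 1 senescent TRF2 library, and COL8A1 and COL12A1 without any 1 senescent TRF2 library.

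The interaction of senescence and TRF2, the difference between both senescence contrasts, called 0 collagen genes by edgeR in either direction (background 0.177% higher and 0.956% lower) and 0 by DESeq2. An unadjusted p below 0.05 was found for 9 of the 32 genes (background 15.9%). The genes with the smallest p were COL7A1, with an interaction of −1.06 (SE 0.33, adjusted p = 0.135 from edgeR), and the transmembrane collagen gene COL13A1, with −0.57 (SE 0.18, adjusted p = 0.152). Without senescent empty replicate 1 the edgeR fit called 2 collagen genes higher and 4 lower, among them COL7A1 at −1.37 (adjusted p = 0.000158) and COL13A1 at −0.71 (adjusted p = 0.00738), and without its replicate 3 it called 2 lower. A fit without the filter on low counts called 1 higher and 8 lower, with no share over all genes given. In the study TRF2 was expressed for longer in senescent than in young cells, and the senescent groups differed in PD. The interaction cannot tell these apart from senescence.

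**Figure D3:**
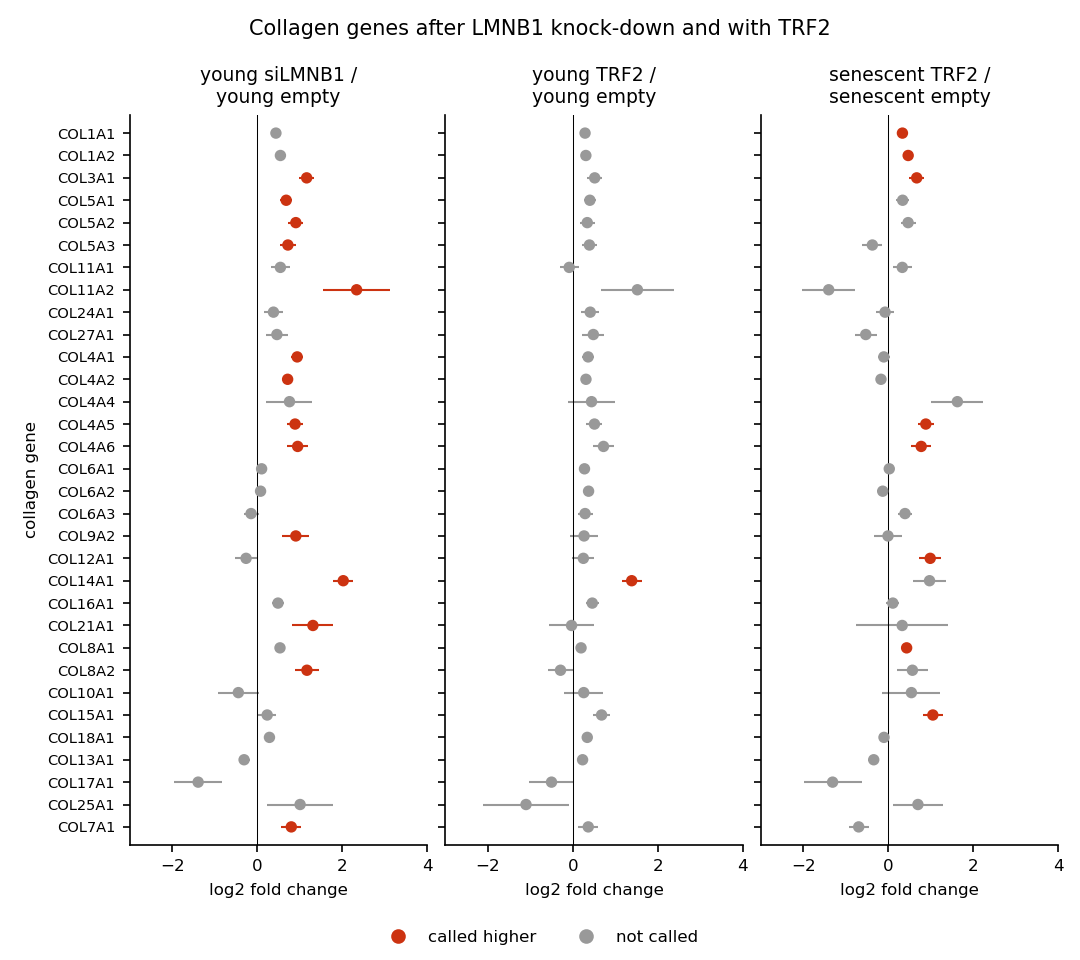
Points give the log2 fold change of each tested collagen gene after siLMNB1 in young cells and with TRF2 in young and in senescent cells, and bars give the standard error. With siLMNB1, 27 of 32 genes lie right of 0 and COL14A1 (2.02) and COL3A1 (1.16) are among those called.

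Type I collagen, the most abundant collagen of connective tissue, was not called in either senescence comparison in the fit without offsets. COL1A1 (ENSG00000108821.13, GRCh38 chr17:50184101-50201632) had 11789.8, 12288 and 11671 CPM in young and 12705, 11406 and 11102 CPM in senescent cells with the empty vector. These groups overlapped, and the log2 fold change was −0.02 (SE 0.10, adjusted p = 0.858, edgeR), while the refit with offsets gave −0.77 (adjusted p = 9.88e-06). COL1A2 (chr7:94394895-94431227) had 7272, 7166 and 6722 CPM in young and 7735, 6694 and 6140.3 CPM in senescent cells, with a log2 fold change of −0.04 (SE 0.11, adjusted p = 0.753). The offsets moved COL1A1, whose GC content is higher, and left COL1A2 at 0.05 (adjusted p = 0.666).

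With siLMNB1 both type I genes were above all controls but below the fold threshold. COL1A1 had 16483, 15075 and 16954 CPM and a log2 fold change of 0.44 (SE 0.10, adjusted p = 0.00291), and COL1A2 had 10780.3, 9834 and 10286 CPM and 0.55 (SE 0.11, adjusted p = 0.00104). In young TRF2 cells COL1A1 had 13948, 14857 and 14886 CPM, and in senescent TRF2 cells 13809, 17217 and 13316 CPM. Within senescent cells TRF2 raised COL1A1 by 0.33 (SE 0.10, adjusted p = 0.0412) and COL1A2 by 0.47 (SE 0.11, adjusted p = 0.0119) on the log2 scale. The call of COL1A1 was lost with the replicate block (adjusted p = 0.055), without senescent empty replicate 2 (0.0773) and without senescent TRF2 replicate 1 (0.063) or 2 (0.21), and that of COL1A2 without senescent TRF2 replicate 2 (0.0676).

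The type I protein is assembled from a fixed ratio of its chains, and the RNA ratio per kilobase was compared between groups. The lengths were those of all annotated exons merged, 9007 bases for COL1A1 and 10812 for COL1A2. The size of the ratio depends on these lengths, so it cannot be read against that of the protein. The log2 ratio of COL1A1 to COL1A2 was 1.02 ± 0.0527 in young and 1.04 ± 0.070 in senescent cells with the empty vector (SD, n = 3, exact two-sided permutation p = 0.8). It was 0.91 ± 0.0615 with siLMNB1 (exact permutation p = 0.2) and 0.90 ± 0.0502 in senescent TRF2 cells, which did not overlap senescent cells with the empty vector (exact permutation p = 0.1, adjusted p = 0.1875). With the offsets, the senescent value minus the young one became −0.83 with the empty vector.

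Type III collagen, which forms thin fibrils together with type I in lung and skin, fell in senescent cells and rose with siLMNB1. COL3A1 (chr2:188974373-189012746) had 1611, 1569.9 and 1461 CPM in young and 524, 327 and 279.6 CPM in senescent cells with the empty vector, and 3675, 3386 and 3338 CPM with siLMNB1. No library of these groups overlapped another group. Its log2 fold change was −2.04 in senescence (SE 0.18, adjusted p = 7.05e-08) and 1.16 with siLMNB1 (SE 0.18, adjusted p = 0.00011).
In TRF2 cells the young libraries had 2105, 2521 and 2015 CPM and the senescent ones 596, 688 and 514 CPM, for a log2 fold change of −1.89 (SE 0.18, adjusted p = 1.78e-07). TRF2 raised COL3A1 in senescent cells by 0.67 (SE 0.17, adjusted p = 0.0227), although the groups overlapped, with 524 CPM in 1 library without and 514 CPM in 1 library with TRF2. That call was lost without senescent empty replicate 2 (adjusted p = 0.0752) and without senescent TRF2 replicate 1 (0.0682) or 2 (0.109). In young cells the TRF2 value was 0.52 (adjusted p = 0.319). The ratio of COL3A1 to COL1A1 per kilobase was 0.173 in young cells with the empty vector, 0.286 with siLMNB1 and 0.0423 in senescent cells.

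Type V collagens are minor fibrillar chains that start type I fibrils and set their width. COL5A3 (ENSG00000080573.7, chr19:9959561-10010504) had 30.9, 37.4 and 31.6 CPM in young and 3.16, 4.11 and 3.56 CPM in senescent cells with the empty vector. In the TRF2 groups it had 39.3, 49.1 and 42.7 CPM in young and 2.96, 3.88 and 1.57 CPM in senescent cells. Every senescent library was far below every young one, with log2 fold changes of −3.20 (SE 0.21, adjusted p = 2.38e-09) and −3.97 (SE 0.22, adjusted p = 2e-10). With offsets these became −4.11 and −4.67.
The other type V chains, COL5A1 and COL5A2, were not called in senescence with the empty vector. COL5A1 had 659, 681 and 612 CPM in young and 583, 538 and 401 CPM in senescent cells, with a log2 value of −0.36 (adjusted p = 0.0393) that became −1.11 with offsets. COL5A2 had 976, 1005 and 931 CPM in young and 730.0, 542 and 354 CPM in senescent cells, a value of −0.84 (SE 0.18, adjusted p = 0.000548) under the fold threshold.
With siLMNB1 all 3 type V genes rose. COL5A1 had 1087, 962 and 1083 CPM (log2 fold change 0.68, SE 0.15, adjusted p = 0.00189), COL5A2 had 1900.1, 1822 and 1746 CPM (0.91, SE 0.18, adjusted p = 0.000901) and COL5A3 had 52.7, 50.0 and 62.0 CPM (0.72, SE 0.18, adjusted p = 0.00588). The offsets put COL5A1 at 0.54 and COL5A3 at 0.57, just under the threshold of 0.58.

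Type XI collagens are fibrillar chains best known from cartilage. COL11A1 (chr1:102876467-103108872) rose in senescent cells. It had 36.7, 38.2 and 32.2 CPM in young and 153, 97.9 and 66.9 CPM in senescent cells with the empty vector, and 28.4, 41.5 and 31.3 against 125, 159.8 and 115 CPM with TRF2. The senescent libraries spread widely but none overlapped the young ones. COL11A1 rose by 1.57 (SE 0.23, adjusted p = 1.72e-05) with the empty vector and by 1.98 (SE 0.23, adjusted p = 1.71e-06) with TRF2 on the log2 scale. With siLMNB1 the value was 0.55 (adjusted p = 0.0744).
COL11A2 was counted only rarely, with 5, 1 and 2 reads in young, 10, 19 and 40 in senescent and 17, 8 and 27 in siLMNB1 libraries. Its log2 fold change was 3.09 in senescence (SE 0.77, adjusted p = 0.0022) and 2.34 with siLMNB1 (SE 0.79, adjusted p = 0.033), and the second call was lost in 4 fits that left out a library. With offsets it was 2.19 in senescence and 2.19 with siLMNB1. Of 7 cartilage cell markers 5 were tested and CNMD had at most 3 counts in every library, and the list summed to 81.8 to 87.5 CPM in young and 74.5 to 109.5 CPM in senescent cells with the empty vector.
COL27A1 had 14.05, 14.5 and 12.2 CPM in young and 17.6, 37.4 and 40.7 CPM in senescent cells with the empty vector, and its replicate 1 stood apart from the other two. The log2 fold change of 1.23 (SE 0.26, adjusted p = 0.000619) was 0.55 with offsets and 0.99 without senescent empty replicate 3, both short of the threshold. With TRF2 it was 0.21 (adjusted p = 0.492). COL24A1, at 3.77, 4.11 and 3.24 CPM in young cells with the empty vector, was called in none of the comparisons.

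The genes of each type IV pair are annotated on opposite strands, with the distances between start sites given above. COL4A1 (ENSG00000187498.16, chr13:110148963-110307157) and COL4A2 (chr13:110305812-110513209), the chains of nearly every basement membrane, were the abundant pair. COL4A1 had 1019, 1096 and 1091 CPM in young and 928, 1094 and 637 CPM in senescent cells with the empty vector, and COL4A2 had 1021, 1058 and 1022 against 1115, 1316 and 942 CPM. Neither was called, with log2 fold changes of −0.27 (adjusted p = 0.105) and 0.12 (adjusted p = 0.407). With TRF2 the values were −0.74 (adjusted p = 0.000314) and −0.36 (adjusted p = 0.02), under the fold threshold.
Both rose with siLMNB1. COL4A1 had 2137, 2055 and 1962 CPM, a log2 fold change of 0.94 (SE 0.14, adjusted p = 0.000113), and COL4A2 had 1813, 1589.7 and 1692 CPM, 0.72 (SE 0.13, adjusted p = 0.000393). All siLMNB1 libraries lay above every library of the other groups.
The balance within the pair differed between groups. The log2 ratio of COL4A1 to COL4A2 per kilobase was 0.44 ± 0.0484 in young and 0.03 ± 0.172 in senescent cells with the empty vector, 0.50 ± 0.0834 in young and 0.12 ± 0.0356 in senescent TRF2 cells, and 0.67 ± 0.0846 with siLMNB1 (SD, n = 3). The senescent groups did not overlap their young groups, and siLMNB1 did not overlap its control, each with an exact two-sided permutation p of 0.1 (adjusted p = 0.1875).

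COL4A5 (chrX:108439838-108697545) and COL4A6 (chrX:108155607-108439497), which form the network of smooth muscle and epithelial basement membranes, differed in whether they passed the test. COL4A6 had 13.5, 11.3 and 12.1 CPM in young and 82.5, 71.6 and 51.2 CPM in senescent cells with the empty vector, and 16.1, 31.1 and 13.7 against 108, 142 and 101 CPM with TRF2. Every senescent library was above every young one, with log2 fold changes of 2.48 (SE 0.25, adjusted p = 3.47e-07) and 2.53 (SE 0.25, adjusted p = 2.48e-07). COL4A5 had 91.0, 84.3 and 82.1 CPM in young and 164, 136 and 77.8 CPM in senescent cells with the empty vector, which overlapped (0.55, adjusted p = 0.0175), and 223, 256 and 217 CPM in senescent TRF2 cells (0.92 against young TRF2 cells, adjusted p = 0.000519, which the offsets moved past the threshold to 1.02).
The ratio of COL4A5 to COL4A6 per kilobase was 5.48 in young cells with the empty vector, 5.24 with siLMNB1, 1.41 in senescent cells with the empty vector and 1.57 in senescent TRF2 cells. With siLMNB1 both genes rose. COL4A5 had 163, 165 and 149 CPM (0.89, SE 0.19, adjusted p = 0.00191) and COL4A6 had 25.2, 24.1 and 22.1 CPM (0.95, SE 0.25, adjusted p = 0.00745). TRF2 raised both within senescent cells, COL4A5 by 0.88 (SE 0.19, adjusted p = 0.00787) and COL4A6 by 0.77 (SE 0.23, adjusted p = 0.0437). Markers of smooth muscle and pericytes summed to 307 to 335 CPM in young and 330.3 to 442 CPM in senescent cells with the empty vector, and their part in these values was not tested.
Of the pair COL4A4 and COL4A3, found in the basement membranes of kidney and lung epithelium, COL4A4 had 10, 5 and 3 reads in young and 5, 3 and 1 reads in senescent cells with the empty vector, and COL4A3 was not tested.

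**Figure D4:**
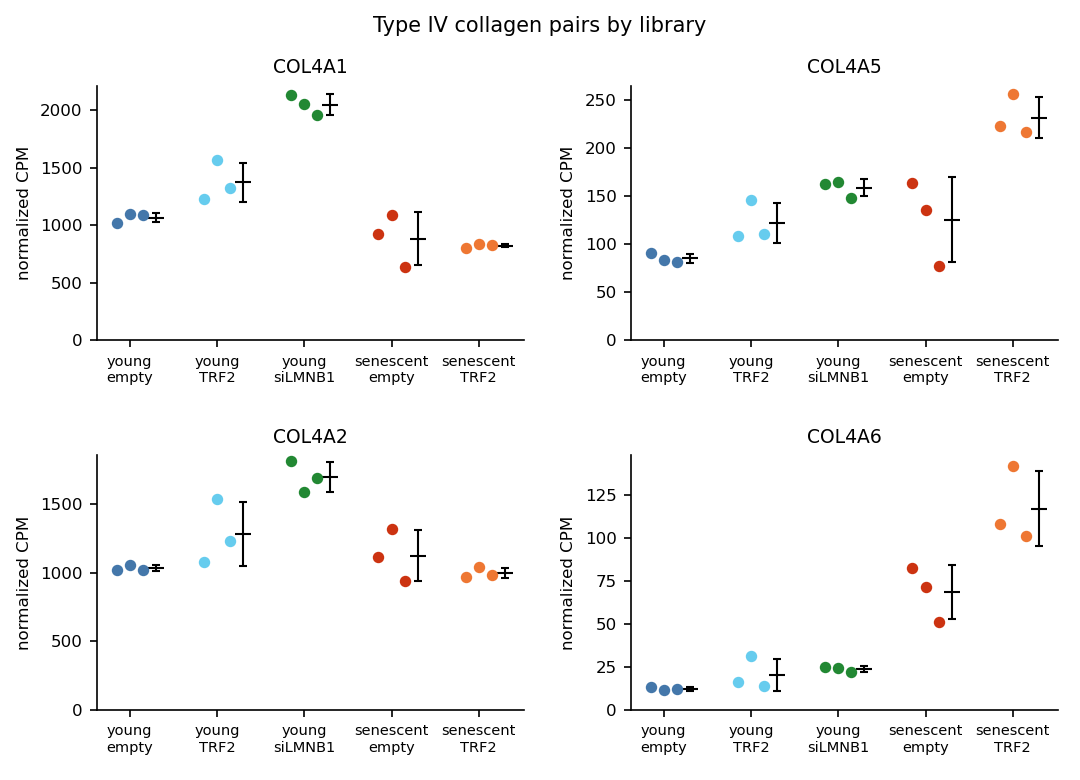
Points give the normalized CPM of COL4A1, COL4A2, COL4A5 and COL4A6 in each library of the 5 groups, and lines give the group mean. COL4A6 lies between 11.3 and 31.1 CPM in the young TRF2 and young empty libraries and between 51.2 and 142 CPM in the senescent ones, while COL4A1 and COL4A2 are highest with siLMNB1.

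Type VI collagen is built from the chains of COL6A1, COL6A2 and COL6A3 and links cells to the matrix around them. COL6A1 (chr21:45981770-46005050) had 1370.2, 1350.2 and 1207 CPM in young and 627, 578 and 588 CPM in senescent cells with the empty vector. All senescent libraries were lower, with a log2 fold change of −1.13 (SE 0.09, adjusted p = 2.81e-08) that became −2.06 with offsets. With TRF2 it was −1.39 (adjusted p = 2.67e-09), and −2.10 with offsets.
COL6A2 (chr21:46098112-46132848) had 1842, 1833 and 1613 against 1419, 1285 and 1696 CPM, and COL6A3 had 4382, 4300.3 and 4393 against 2806, 3194 and 1594 CPM. The COL6A2 groups overlapped. Their log2 fold changes were −0.27 (adjusted p = 0.0807) and −0.78 (adjusted p = 0.00106), neither called, and the offsets put COL6A2 at −1.32 (adjusted p = 1.48e-08). With siLMNB1 the type VI genes stayed near the controls, at 0.10 (adjusted p = 0.414) for COL6A1, 0.08 (adjusted p = 0.674) for COL6A2 and −0.14 (adjusted p = 0.568) for COL6A3.

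FACIT collagens sit on the surface of fibrils. COL14A1 was called in 4 comparisons, as were COL3A1 and COL4A6. It had 1.74, 1.497 and 1.41 CPM in young cells with the empty vector, 3.31, 4.69 and 4.20 CPM in young TRF2 cells, 5.90, 7.05 and 6.02 CPM with siLMNB1, 0.335, 0.222 and 0.227 CPM in senescent cells with the empty vector and 0.351, 0.828 and 0.370 CPM in senescent TRF2 cells. The young groups did not overlap each other. It rose with siLMNB1 by 2.02 (SE 0.23, adjusted p = 6.96e-06) and with TRF2 in young cells by 1.39 (SE 0.23, adjusted p = 0.0166), a call lost in each fit that left out a library of either group, and fell in senescence by 2.56 (SE 0.33, adjusted p = 4.92e-06) on the log2 scale. Against young TRF2 cells the senescent TRF2 cells were lower by a log2 fold change of −2.98 (SE 0.27, adjusted p = 8.48e-08).
COL12A1, a long FACIT of dense connective tissue, had 1142, 1109 and 1159 CPM in young and 521, 406 and 167 CPM in senescent cells with the empty vector. Replicate 3 was the lowest, and the log2 fold change of −1.64 (SE 0.27, adjusted p = 5.56e-05) was −1.31 without it. In senescent TRF2 cells it had 667, 782 and 719 CPM, above all senescent libraries with the empty vector, by 0.99 (SE 0.26, adjusted p = 0.0249). With siLMNB1 it had 1052, 967 and 826 CPM (−0.26, adjusted p = 0.476).
COL16A1, at 120.2, 117 and 113 CPM in young and 90.4, 103 and 113 CPM in senescent cells with the empty vector, was not called (−0.20, adjusted p = 0.264, and −1.02 with offsets). COL21A1 rested on few reads, with 4, 9 and 5 in young, 1, 0 and 1 in senescent and 21, 10 and 23 in siLMNB1 libraries. Over the groups the ratio of senescent to young cells was 0.117 with an exact 95% counting interval of 0.0132 to 0.491, and with TRF2 0.157 (0.0299 to 0.529). Its call with siLMNB1 (1.31, SE 0.48, adjusted p = 0.0478) was lost with DESeq2 (adjusted p = 0.0823), with RLE size factors (0.05005), without the filter on low counts (0.224), with the replicate block (0.0751) and in 5 of the 6 fits that left out a library of either group. COL9A2, with 28, 27 and 36 reads in young and 46, 53 and 118 reads in siLMNB1 libraries, rose by 0.91 (SE 0.32, adjusted p = 0.0393), and the offsets ended that call (0.73, adjusted p = 0.0716).

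Short chain collagens form hexagonal sheets around blood vessels, in the cornea and in growing cartilage. COL8A2 had 68, 60 and 64 reads in young, 28, 14 and 16 in senescent and 139, 157 and 236 in siLMNB1 libraries. It changed by −1.65 on the log2 scale in senescence (SE 0.33, adjusted p = 0.000431) and 1.17 with siLMNB1 (SE 0.28, adjusted p = 0.00417). With offsets these became −2.43 and 1.02. COL8A1 had 115, 117 and 112 CPM in young, 79.5, 76.4 and 51.5 CPM in senescent and 168, 163 and 168 CPM in siLMNB1 libraries.
No COL8A1 library overlapped between these groups. Its log2 fold changes, −0.73 (adjusted p = 0.00012) and 0.54 (adjusted p = 0.00416), lay under the thresholds. TRF2 raised it in senescent cells by 0.43 (SE 0.13, adjusted p = 0.0406). COL10A1, a marker of hypertrophic cartilage, had 28, 11 and 9 reads in young and 2, 5 and 3 in senescent cells with the empty vector (−2.16, SE 0.60, adjusted p = 0.00471), and fell with TRF2 as well (−1.87, adjusted p = 0.00618).

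Multiplexins are basement membrane collagens that carry sugar chains and release fragments that restrain vessel growth, and the members moved in opposite directions in senescent cells. COL15A1 (chr9:98943179-99070792) had 49.1, 46.6 and 45.8 CPM in young and 7.21, 3.74 and 3.63 CPM in senescent cells with the empty vector, and 70.1, 87.5 and 68.7 against 9.37, 13.6 and 7.15 CPM with TRF2. It fell by 3.28 (SE 0.24, adjusted p = 7.54e-09) and by 2.91 (SE 0.23, adjusted p = 1.57e-08) on the log2 scale. Within senescent cells TRF2 raised it by 1.05 (SE 0.24, adjusted p = 0.0117), although 1 library of each group overlapped and the call was lost without senescent TRF2 replicate 2 (adjusted p = 0.0713). In young cells the TRF2 value was 0.68 (adjusted p = 0.269) and the siLMNB1 value 0.24 (adjusted p = 0.416).
COL18A1 (ENSG00000182871.16, chr21:45405165-45513720) had 106, 104 and 95.3 CPM in young and 344, 321 and 336 CPM in senescent cells with the empty vector, and 106, 158 and 123 against 301, 332 and 301 CPM with TRF2. The replicates were tight and every senescent library was above every young one. The log2 fold change was 1.71 (SE 0.12, adjusted p = 4.11e-09) and 1.27 (SE 0.12, adjusted p = 1.26e-07). With offsets these became 0.54 (adjusted p = 0.000604) and 0.31 (adjusted p = 0.0294), under the fold threshold. With siLMNB1 the value was 0.29 (adjusted p = 0.0686).

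COL7A1 forms the anchoring fibrils that tie the epidermis to the dermis. It had 153, 154 and 153 CPM in young cells with the empty vector, 273, 245 and 284 CPM with siLMNB1, and 69.3, 139 and 194 CPM in senescent cells with the empty vector. The senescent replicates lay on both sides of the young ones, and the log2 fold change was −0.19 (adjusted p = 0.485), or −1.23 with offsets. In TRF2 cells the young libraries had 176, 233 and 183 CPM and the senescent ones 79.1, 90.2 and 79.4 CPM, a log2 fold change of −1.25 (SE 0.24, adjusted p = 0.00025) that became −2.08 with offsets. With siLMNB1 it rose by 0.80 (SE 0.23, adjusted p = 0.0146).
Transmembrane collagens are cell surface proteins. COL13A1 was called in none of the comparisons, and its values in senescent cells with the empty vector, 36.4, 49.3 and 52.2 CPM, overlapped those of the young cells, 37.4, 39.0 and 39.4 CPM. COL25A1 had 0, 4 and 0 reads in young and 19, 12 and 16 reads in senescent TRF2 cells, a rise of 3.49 (SE 0.79, adjusted p = 0.00117), and 2, 5 and 1 against 11, 5 and 9 reads with the empty vector (1.70, adjusted p = 0.0589, and 2.06 with adjusted p = 0.026 with offsets). COL17A1, a component of hemidesmosomes, had 12, 26 and 23 against 8, 4 and 3 reads in the TRF2 groups (−1.94, SE 0.64, adjusted p = 0.0157). That call was lost without young TRF2 replicate 2 (adjusted p = 0.0548) and without senescent TRF2 replicate 2 (adjusted p = 0.0525) or replicate 3 (adjusted p = 0.0709).

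**Figure D5:**
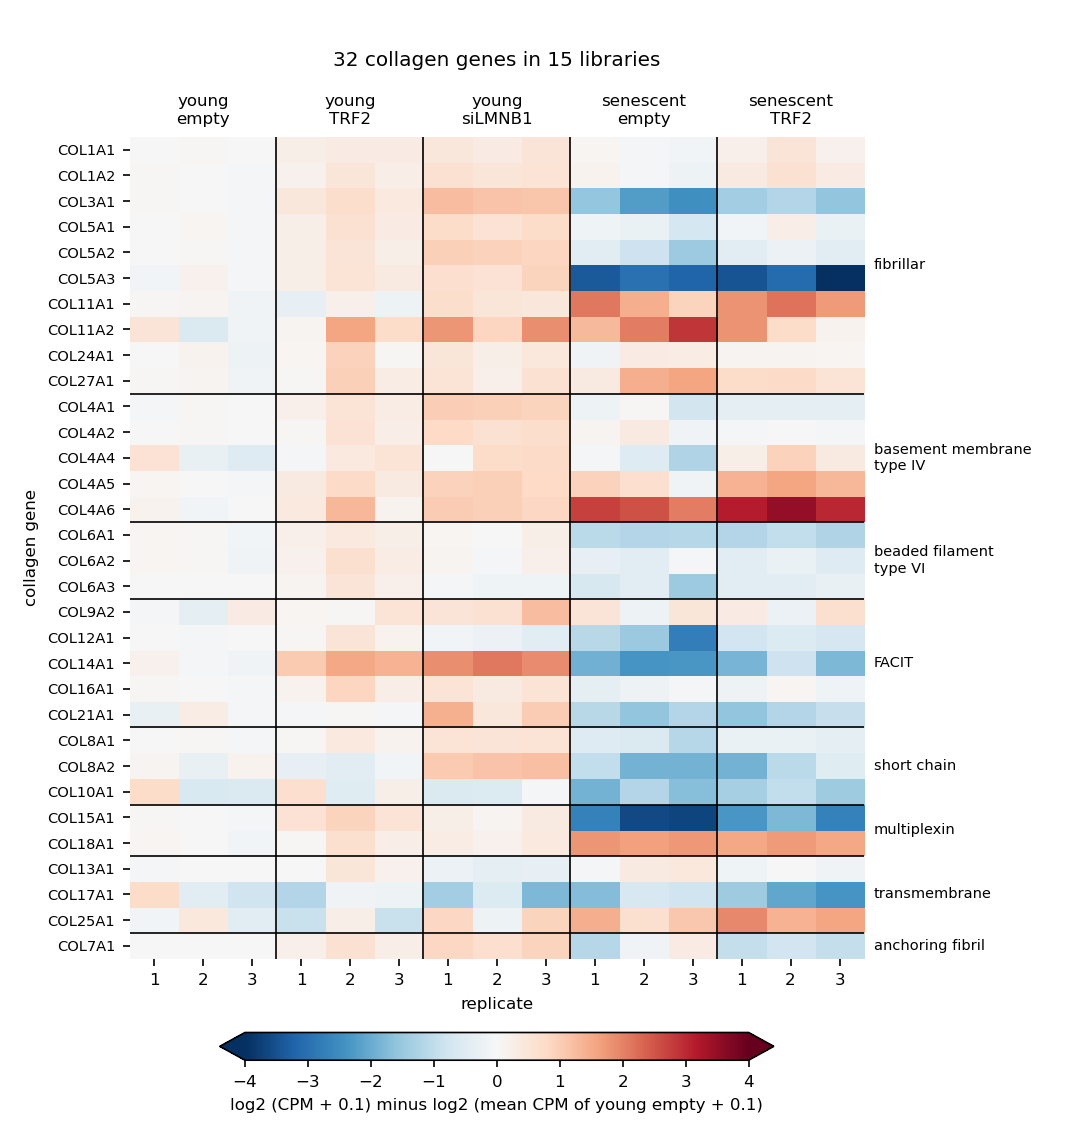
The colour gives log2 (CPM + 0.1) of each of the 32 tested collagen genes in each of the 15 libraries, minus the same for the mean of the young empty group, on a scale that ends at 4 in either direction. COL5A3 and COL15A1 are low and COL4A6 and COL11A1 high in all 6 senescent libraries, and the siLMNB1 columns are mostly above 0.

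The position of genes near chromosome ends was of interest to the study, and 5 collagen genes lay within 2 Mb of an end. COL6A2 (0.577 Mb), COL6A1 (0.705 Mb) and COL18A1 (1.20 Mb) lie near the end of chromosome 21q, and COL20A1 (1.11 Mb) and COL9A3 (1.60 Mb) near that of 20q. Without offsets COL18A1 rose, COL6A1 fell and COL6A2 was not called in senescent cells with the empty vector. With offsets COL18A1 was no longer called (0.54) and COL6A2 was called lower (−1.32), so both calls depended on the offsets. Their exons have GC contents of 66.8%, 64.0% and 65.8%.

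Genes that make, export, cut and bind collagens were examined in 8 lists with 95 genes, of which 93 were tested. In senescent cells with the empty vector 10 rose (background of all genes 16.7%) and 12 fell (background 11.8%), and with offsets 6 rose and 14 fell (backgrounds 11.3% and 9.83%). In senescent against young TRF2 cells 12 rose (background 11.9%) and 10 fell (background 12.1%), and with siLMNB1 13 rose (background 10.3%) and 5 fell (background 8.06%). TRF2 raised 3 (background 0.152%) and lowered 0 (background 0.0253%) in young cells, and raised 16 (background 4.87%) and lowered 5 (background 6.41%) in senescent cells. The interaction called 1 gene lower (background 0.956%), CTSK, which encodes the collagen-degrading protease cathepsin K, at −1.73 (SE 0.22, adjusted p = 0.00465). The genes raised in young TRF2 cells were DCN, LUM and POSTN, and these and CTSK are named because of their small counts, after their values were seen.

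Proteins that organise fibrils were also covered. With siLMNB1, 6 of 12 tested fibril organisation genes rose (background 10.3%) and 0 fell (background 8.06%), and in senescent cells with the empty vector 0 rose (background 16.7%) and 4 fell (background 11.8%), or 3 with offsets. POSTN, the matrix protein periostin, had 64.4 ± 5.98 CPM in young cells with the empty vector, 312 ± 22 CPM with siLMNB1 (log2 fold change 2.27, SE 0.14, adjusted p = 2e-08) and 4.04 ± 0.684 CPM in senescent cells (−3.998, SE 0.16, adjusted p = 6.58e-12). LUM, the fibril-binding proteoglycan lumican, rose with siLMNB1 by 1.68 (SE 0.15, adjusted p = 5.18e-07), and THBS2, the matrix protein thrombospondin 2, fell by 2.55 on the log2 scale in senescence (SE 0.13, adjusted p = 1.06e-10), where 31.2% of its exonic bases are shared with another gene.

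Of 19 genes of collagen folding and modification, 1 rose (background 16.7%) and 3 fell (background 11.8%) in senescent cells with the empty vector, and 1 rose (background 10.3%) and 2 fell (background 8.06%) with siLMNB1. The backgrounds are the same for each list that follows. With offsets 3 of the 4 senescence calls ended, those of PLOD1, P4HA1 (−0.53) and FKBP14 (−0.45), and SERPINH1, the collagen chaperone HSP47, passed (−1.36, from −0.85), the last 3 genes being named after their values were seen. PLOD1, a lysyl hydroxylase, rose in senescence by 1.15 (SE 0.08, adjusted p = 3.97e-09, and 0.66 with offsets). COLGALT2, which adds galactose to hydroxylysine, fell in senescence by 1.33 (SE 0.14, adjusted p = 5.83e-07) and rose with siLMNB1 by 1.07 (SE 0.13, adjusted p = 1.41e-05), and P3H2, a prolyl hydroxylase, fell with siLMNB1 by 0.98 (SE 0.09, adjusted p = 6.8e-07) on the log2 scale. Of 10 export genes, MIA2 alone was called in senescence: it went from 0.560 ± 0.219 to 15.6 ± 1.81 CPM (4.77, SE 0.20, adjusted p = 6.58e-12), and none were called with siLMNB1. Of 7 tested genes of propeptide cleavage, 1 rose and 2 fell in senescence, namely ADAMTS3 (−2.19, SE 0.28, adjusted p = 5.01e-06) and PCOLCE2 (−2.16, SE 0.52, adjusted p = 0.00165), and none were called with siLMNB1. Of 6 crosslinking genes none were called in senescence and LOXL3, a lysyl oxidase, rose with siLMNB1 by 0.80 (SE 0.12, adjusted p = 0.000121).

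Laminins and other partners of type IV collagen and the receptors of collagens formed further lists. In senescent cells with the empty vector 2 of 10 basement membrane partners rose (background 16.7%) and 2 fell (background 11.8%), and with siLMNB1 4 rose (background 10.3%) and 0 fell (background 8.06%). The laminin chain gene LAMA5 rose in senescence by 2.26 (SE 0.17, adjusted p = 8.41e-09, and 1.16 with offsets), and AGRN, which encodes agrin, by 1.07 (SE 0.08, adjusted p = 1.3e-08), a call that the offsets ended at −0.04. With siLMNB1 the laminin chain genes LAMB1 (0.60, SE 0.11, adjusted p = 0.000671) and LAMA2 (1.06, SE 0.25, adjusted p = 0.0043) rose, and the offsets put LAMB1 at 0.52, under the threshold, and left 1 gene of the list called. Among 13 receptors and uptake genes 3 rose and 0 fell in senescence (1 and 2 with offsets), with DDR1, a receptor tyrosine kinase that binds collagen, at 1.49 (SE 0.08, adjusted p = 1.4e-10, and 0.78 with offsets) and the integrin chain ITGA11 at 1.62 (SE 0.11, adjusted p = 1.84e-09).
With siLMNB1, 0 receptors and uptake genes rose (background 10.3%) and 3 fell (background 8.06%). ITGB1, the beta chain shared by the collagen-binding integrins, went from 2677 ± 73.6 to 769 ± 30.5 CPM (−1.80, SE 0.12, adjusted p = 2.7e-08), and ANTXR2, a receptor for type VI collagen, fell by 0.72 (SE 0.10, adjusted p = 3.41e-05) on the log2 scale. In the list of transforming growth factor beta signalling, the main inducer of collagen synthesis in fibroblasts, 2 of 16 genes rose (background 16.7%) and 1 fell (background 11.8%) in senescent cells with the empty vector. SMAD7, an inhibitor of the pathway, rose by 1.59 (SE 0.18, adjusted p = 8.59e-07) and CCN2, a target gene, fell by 1.17 (SE 0.15, adjusted p = 3.85e-06) on the log2 scale. With siLMNB1, 1 gene rose, the ligand gene TGFB2 (0.98, SE 0.33, adjusted p = 0.0328).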

How the data were processed

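RNA-seq counts were analysed for 15 libraries of MRC-5 cells, with groups taken from the labels. Per the labels, the authors used Trimmomatic for trimming and STAR for alignment to GRCh38, and deposited raw read counts of each gene with no normalization. They also used DESeq2. The annotation release and strand setting are not given in the sources used here, so reads of antisense or overlapping genes cannot be told apart.

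Gene names and positions came from GENCODE 44. Counts were normalized with TMM and tested with edgeR 4.0.16 (quasi-likelihood, filterByExpr, R 4.3.3) in 1 model of the 5 group means with 10 residual degrees of freedom, with Benjamini-Hochberg adjustment over 15799 genes. CPM are counts scaled to the effective library size, and levels per kilobase divide them by the length of all annotated exons of the gene merged. Ranks and ratios between genes depend on this length. Shares and ratios were compared with exact permutation tests. Offsets came from loess curves (span 0.3, prior count 1) of each library against GC content and length, with the young empty group as reference. The alternatives are listed in the closing section, among them DESeq2 1.42.0. Python 3.11.15 with numpy 2.4.6, pandas 2.3.3, scipy 1.17.1 and matplotlib 3.10.9 served for the rest, and limma 3.58.1 is a separate package that edgeR depends on.

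The members and lists were chosen with earlier results of these data known. Named were collagen genes called in at least 1 of 6 comparisons, the 10 with the highest level per length in any group, the divergent type IV pairs and type I, those within 2 Mb of a chromosome end, and of each pathway list the 2 genes with the smallest adjusted p among those called in senescent cells with the empty vector and with siLMNB1. Other collagen genes appear with read counts, apart from COL24A1, COL13A1 and COL16A1, which were given values after these were seen. The precision rests on 3 replicates and 26725885 to 43116046 counts per library. The fits were tested on simulated data. Promoter sequences were taken from the RefSeq table, in which COL1A1, COL1A2, COL3A1, COL5A2, COL6A1, COL8A1, COL2A1, COL6A5, COL14A1, COL20A1, COL22A1 and COL9A3 were not matched.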

Additional observations from a re-analysis of the deposited data

How the results depend on the processing

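Replicate numbers did not pair the libraries: of 30 pairs of libraries with the same number in different groups, 2 had a correlation of their deviations above 0.1 (median 0.00312). With the number as a replicate block, 5 collagen genes rose and 9 fell in senescent cells with the empty vector, 4 and 9 with TRF2, 13 and 0 with siLMNB1, 1 and 0 with TRF2 in young cells, 7 and 0 with TRF2 in senescent cells, and 0 and 0 in the interaction. Outside the fits that left out a library, 83 counts of called collagen genes stayed within 1.5 times and 19 did not. With offsets for GC content and length, with or without the block, 14 genes fell in senescent cells with the empty vector and 1 fell with siLMNB1, and TRF2 in senescent cells lowered 1 gene without and 2 with the block. Without the fold threshold, 20 genes fell in senescent against young TRF2 cells. Among the genes that share no exonic base, 4 fell in that comparison, 9 rose with siLMNB1 and 5 rose with TRF2 in senescent cells. These counts have fewer genes to draw on by construction. Without the filter on low counts, 1 gene fell with siLMNB1, 10 rose with TRF2 in young cells, 2 fell with TRF2 in senescent cells, and the interaction had 1 higher and 8 lower. With only the libraries compared, 1 fell with siLMNB1, 12 rose with TRF2 in young cells and 0 rose with TRF2 in senescent cells, where DESeq2 lowered 1. The cause was not tested. Outside the main fit, a share over all genes is given only for senescent cells with the empty vector under offsets. The other counts of called genes have no background beside them.

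With each library left out in turn, the genes that rose and fell numbered 4 to 6 and 9 to 10 in senescent cells with the empty vector, 4 to 5 and 8 to 10 with TRF2, 11 to 15 and 0 to 1 with siLMNB1, 0 and 0 with TRF2 in young cells, 1 to 12 and 0 to 3 with TRF2 in senescent cells, and 0 to 2 and 0 to 4 in the interaction. The difference in the log2 ratio of COL1A1 to COL1A2 ranged from −0.0147 to 0.0547 in senescent cells with the empty vector and from −0.0546 to 0.0573 with TRF2 in young cells, and that of COL4A1 to COL4A2 from −0.0101 to 0.139 with TRF2 in senescent cells. With offsets the first was −0.83 in senescent cells with the empty vector and 0.019 with TRF2 in senescent cells.

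Single genes changed sign only near 0 or with offsets. In senescent cells with the empty vector COL1A2 was 0.052 with offsets and 0.053 with the block as well. Over the fits without 1 library, COL1A2 ranged from −0.14 to 0.012 there, positive without senescent empty replicate 3, COL4A2 from −0.011 (without its replicate 2) to 0.21 and COL7A1 from −0.57 to 0.11 (without its replicate 1). In senescent against young TRF2 cells COL1A1 was −0.58 with offsets, with or without the block, and ranged from −0.11 to 0.088 over the fits without 1 library, negative without young TRF2 replicate 1 (−0.019) and without senescent TRF2 replicate 2. COL27A1 was −0.33 there with offsets and −0.31 with the block as well. With siLMNB1 the offsets gave −0.074 for COL6A1 and −0.12 for COL6A2, and −0.070 and −0.12 with the block. In these alternatives 534 values of single genes kept their direction and side of the threshold, 21 newly passed and 24 no longer passed it, and over the fits without 1 library the numbers were 469, 7 and 41. Depth limits the genes counted with few reads, such as COL21A1 and COL11A2, and 3 replicates limit every exact test to a smallest p of 0.1.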
